A study of Mus musculus with 24 samples.

Results

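The insulin-like growth factor (IGF) axis was followed through 10 genes, taken by symbol from a table of 21833 protein-coding genes. The set was chosen with earlier results of these data known. They were the ligands Igf1 and Igf2, the receptors Igf1r, Igf2r and Insr, and the binding proteins Igfbp2, Igfbp3, Igfbp4, Igfbp5 and Igfbp7. Poly(A) RNA-seq had been run on 24 mouse samples, whole adrenal glands and neuroblastoma tumors, and the labels do not say which samples came from the same animal. The group AG held 3 adrenal glands from mice without Cre. The group AGM held 5 adrenal glands from MYCN +/-, CRE + animals, which the study describes as free of tumors and as taken after a year. The group TI held 8 tumors that arose with an IGF2BP1 transgene and CRE +, 1 of them labelled +/- and 7 labelled +/+. The group TIM held 8 tumors labelled IMP1/MYCN, CRE +, where IMP1 is another name of IGF2BP1, and the study describes them as carrying both transgenes at the same locus. The transgenes lay at the Rosa26 locus behind a stop cassette that a Dbh-driven iCRE removed in cells that use the dopamine beta-hydroxylase promoter, so that other cells of a gland or tumor were not targeted. Ages of the other mice were not given in the labels, and the study reports shorter survival of mice with both transgenes than of IGF2BP1 +/+ mice.

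IGF1 and IGF2 are secreted growth factors that bind the tyrosine kinase receptor IGF1R and, in part, the insulin receptor, and both receptors signal through IRS adaptors to PI3K and AKT. IGF2R is the mannose 6-phosphate receptor, which takes IGF2 up for degradation and carries no kinase. Secreted IGF binding proteins hold the ligands in the extracellular fluid and limit or prolong their access to the receptor. Igf2 is an imprinted gene that is high in the mouse fetus and silent in most adult tissues, whereas adult circulating IGF1 comes mainly from the liver. The transgene product IGF2BP1 was named for its binding to IGF2 mRNA.

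Values are FPKM, which scale the fragments of a gene by its length and by a library size set by the authors. Levels of different genes can thus be compared on that scale. That size was not the number of recovered reads. It was 107302734 in the first AG library, which held 17467197 recovered reads, and 80281938 in the third AGM library, which held 1170004708. An FPKM below 1 is therefore low on the deposited scale only. Outside 126 genes that exceeded 1000 FPKM in some library, none of them in the IGF set, the libraries held 12334076 to 23683176 recovered reads. With those genes, AG held 17434796 to 17893013 reads and TI 12468968 to 21353172. AGM then held 116740738 to 1170004708 and TIM 58530450 to 888626365. The extreme genes thus hold far more corrected reads in AGM and TIM, and the cause was not tested. All AG samples came from run 1 and all AGM samples from run 2, and TIM shared no run with AG, so that for the contrasts AGM vs AG and TIM vs AG the run cannot be told apart from the group. Run 1 also held 6 TI samples. The summed FPKM of 8 adrenal cortex markers reached 675 to 704 in AG and 3667 to 4906 in AGM, but at most 13.5 in TI and 11.3 in TIM, and all 8 markers were lower in TI and in TIM than in AG (limma FDR below 0.05 each). The tumors held little cortex RNA, while the summed level of 9 chromaffin and sympathoblast markers spanned 140 to 202 FPKM for AG, 1471 to 2544 for AGM, 193 to 1790 for TI and 216 to 4711 for TIM. Its median was 1721 FPKM in AGM, above those of TI (472) and TIM (859). The sum of 5 pancreas acinus markers was 2.16 to 2.50 FPKM in AG and at most 3.37 in TI. It was 28352 to 428309 in all AGM libraries and 0.414 to 3586321 in TIM. The sum thus moved with every AGM vs AG difference given here. Its markers did not all rise together. In AGM, Cpb1 was at 28333 to 57986 FPKM, but Cpa1 was at most at 0.00622 and Prss2 at 0.0153. In TIM, Ctrb1 reached 3480580 FPKM, but Cpb1 was at most at 0.258. The sum is therefore not read as an amount of tissue, and its part in the AGM vs AG differences was not tested. The mouse Igf2bp1 gene reached at most 0.0796 FPKM in any library, and the table had no separate row for the transgene. In bulk tissue, fewer cells of a type and less RNA per cell cannot be told apart.

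Promoters are shown for Igfbp4 and Igfbp5, which fell in the tumors, and for Igf2r and Igfbp2, the members with a promoter that holds the E-box CACGTG bound by the MYC family. Igfbp2 has 2 promoters in the table, of which the one not shown holds 0 CACGTG. They are RefSeq promoters (GRCm38.p6 table), from 250 bases before to 50 bases after the annotated start, placed on GRCm39 by exact match, with CACGTG or TATAAA in capitals. An entry was found for 9 of the 10 members. Igf2r lies at chr17:12988544-12988843 (minus strand), Igfbp2 at chr1:72863389-72863688 (plus strand), Igfbp4 at chr11:98931820-98932119 (plus strand) and Igfbp5 at chr1:72913975-72914274 (minus strand).
Igf2r: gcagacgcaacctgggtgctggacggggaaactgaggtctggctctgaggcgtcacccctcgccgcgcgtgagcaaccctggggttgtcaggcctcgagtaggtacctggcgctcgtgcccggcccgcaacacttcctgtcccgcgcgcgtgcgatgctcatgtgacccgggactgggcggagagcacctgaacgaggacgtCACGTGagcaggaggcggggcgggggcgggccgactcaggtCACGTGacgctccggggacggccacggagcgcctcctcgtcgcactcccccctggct
Igfbp2: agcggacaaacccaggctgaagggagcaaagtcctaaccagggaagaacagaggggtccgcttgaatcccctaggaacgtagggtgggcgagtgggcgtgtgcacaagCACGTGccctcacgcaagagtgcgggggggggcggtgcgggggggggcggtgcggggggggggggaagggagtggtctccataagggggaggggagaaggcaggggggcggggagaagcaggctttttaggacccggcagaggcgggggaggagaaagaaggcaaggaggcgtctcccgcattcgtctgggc
Igfbp4: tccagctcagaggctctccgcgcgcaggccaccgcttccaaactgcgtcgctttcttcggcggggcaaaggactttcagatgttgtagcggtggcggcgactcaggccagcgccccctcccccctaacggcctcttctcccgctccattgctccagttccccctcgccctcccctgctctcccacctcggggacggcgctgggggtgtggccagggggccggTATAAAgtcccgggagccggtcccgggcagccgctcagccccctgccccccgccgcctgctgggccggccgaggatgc
Igfbp5: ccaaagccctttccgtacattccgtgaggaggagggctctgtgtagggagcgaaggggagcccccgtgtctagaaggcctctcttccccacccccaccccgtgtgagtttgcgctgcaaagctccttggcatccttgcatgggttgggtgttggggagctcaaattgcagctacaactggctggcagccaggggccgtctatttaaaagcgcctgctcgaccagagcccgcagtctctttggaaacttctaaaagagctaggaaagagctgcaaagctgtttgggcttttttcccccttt
The first bases of the CACGTG matches of Igf2r lay at -48 and -7 and that of Igfbp2 at -142, counted from the start base as 0, and the TATAAA of Igfbp4 lay at -28. Both strands were searched for the letters CACGTG and TATAAA, which do not overlap each other, and 7.15% and 13.6% of all 32851 promoters in the table held them. Igfbp2 (chr1:72863606-72891634, plus strand) and Igfbp5 (chr1:72897091-72914043, minus strand) are neighbours that end toward each other.

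**Figure D1:**
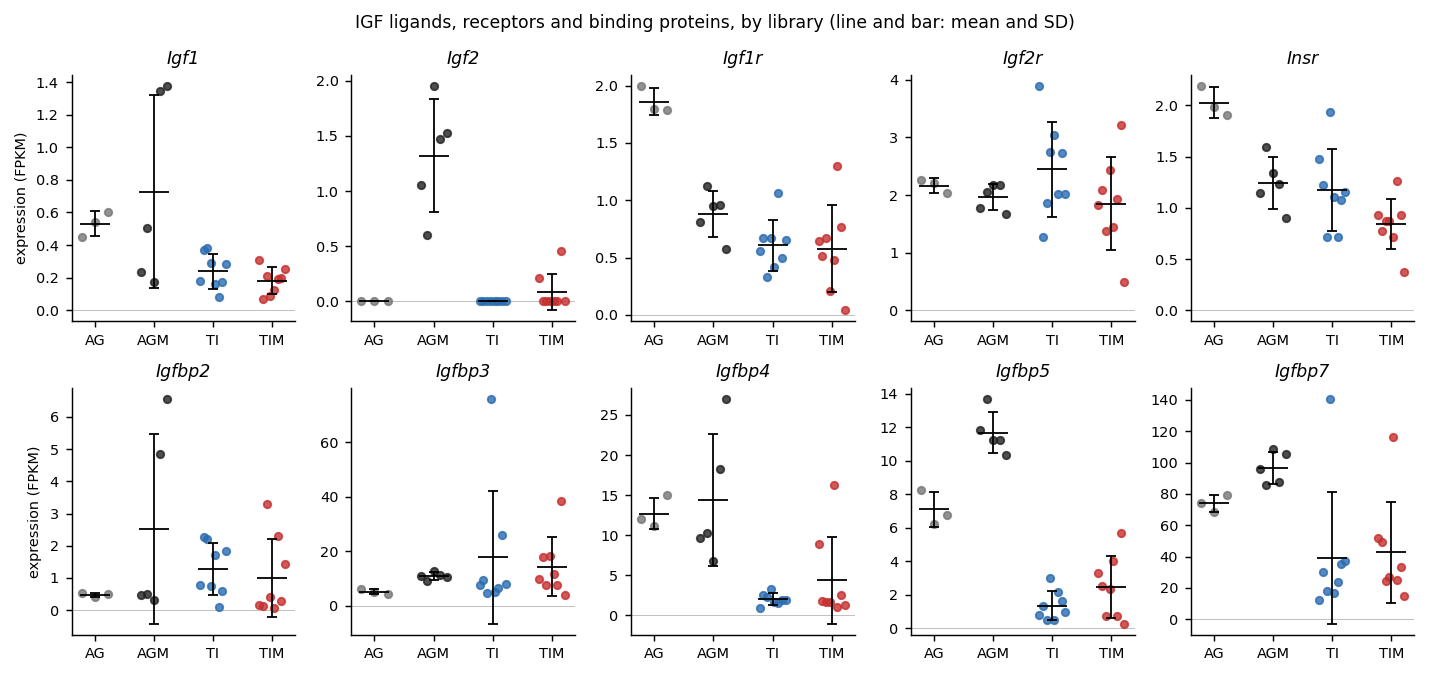
FPKM (linear axes that differ between panels) of the 10 genes in each library of AG, AGM, TI and TIM; points are libraries, lines the group means and bars the SD. Igf2 was at 0.599 to 1.96 FPKM in AGM and at most at 0.454 FPKM elsewhere, and Igfbp4 was at most at 3.33 FPKM in every TI library and at least at 6.79 FPKM in every gland.

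Igf1 was low in all groups on the deposited scale. In AG it was at 0.447, 0.544 and 0.603 FPKM, and in AGM at 0.233, 0.502, 0.174, 1.35 and 1.38 FPKM. In TI its lowest, median and highest values were 0.0805, 0.230 and 0.380 FPKM, and in TIM 0.0659, 0.194 and 0.311 FPKM. Every tumor lay below every AG library, while AGM held both lower and higher libraries than AG. On the deposited scale Igf1 did not reach 1 FPKM in 3 libraries. With FPKM recomputed outside the 126 extreme genes, all 10 members passed that filter. Igf1 was compared as reads scaled to the library's reads outside the 126 extreme genes (RPM) by exact two-sided permutation tests. Its mean was 14.1 RPM in TI and 32.0 RPM in AG, a log2 ratio of -1.18 (exact permutation p = 0.0121, adjusted over 6 contrasts 0.0364). In TIM it was 9.99 RPM, a log2 ratio to AG of -1.68 (exact permutation p = 0.0121, adjusted 0.0364). Both p-values are the smallest that 8 against 3 libraries allow in a two-sided test here, and both calls were lost when a library of their own 2 groups was left out, where fewer libraries raise the smallest possible p (adjusted exact permutation p = 0.0889 without any 1 AG library). Between the tumor groups the difference missed the threshold (log2 ratio -0.50, adjusted exact permutation p = 0.194), as did that between AGM and AG (log2 ratio -0.14, adjusted exact permutation p = 0.786).

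Igf2, the fetal ligand, was near 0 in normal glands and in IGF2BP1 tumors and present in all MYCN glands. AG held 1 recovered read of Igf2 per library and TI held 0 or 1. AGM were at 1.05, 0.599, 1.96, 1.47 and 1.53 FPKM, from 315 to 899 reads per library. In TIM, Igf2 was listed at 0 in 6 of 8 libraries, and the other two were at 0.209 FPKM (127 reads) and 0.454 FPKM (297 reads). AGM therefore did not overlap with any other group, and TIM was split between libraries. The ratio of depth-scaled reads was 566 for AGM to AG (exact 95% interval 194 to 2748, counting error only) and 49.9 for TIM to AG (17.0 to 243), the latter from 2 libraries. In the limma fit, Igf2 was higher in AGM than in AG by 1.18 on the log2(FPKM + 1) scale (SE 0.14, FDR = 9.61e-07) and lower in TIM than in AGM by a log2 difference of -1.08 (SE 0.11, FDR = 1.65e-08). Igf2 passed the filter through AGM alone, so that a difference from AGM was fixed by the filter. With at most 1 read in each of the 11 AG and TI libraries and at least 315 in each AGM library, Igf2 was 1 of 87 genes of the table with that pattern, which include the liver genes Ahsg and Cyp8b1 and the pancreas gene Cpb1. The TIM library at 0.454 FPKM of Igf2 had a pancreas acinus marker sum of 0.980 FPKM, and that at 0.209 FPKM had a sum of 888641 FPKM. The TIM library with the highest such sum had Igf2 listed at 0. The part of run, of the authors' batch correction and of admixed tissue in the Igf2 level of AGM was not tested.

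The signalling receptor Igf1r fell in both tumor groups and in AGM. It was at 2.00, 1.79 and 1.79 FPKM in AG and at 0.806, 1.12, 0.9503, 0.955 and 0.577 FPKM in AGM. Its lowest, median and highest values were 0.334, 0.606 and 1.06 FPKM in TI and 0.0408, 0.578 and 1.30 FPKM in TIM. Every AGM, TI and TIM library lay below all 3 AG libraries, and these groups overlapped among themselves. Against AG, the log2 difference was -0.84 in TI (SE 0.16, limma FDR = 0.000158), -0.89 in TIM (SE 0.16, limma FDR = 8.38e-05) and -0.61 in AGM (SE 0.18, limma FDR = 0.0125). Its order of means was AG, AGM, TI and TIM, and the neighbours AGM and TI (limma FDR = 0.135) and TI and TIM (limma FDR = 0.809) did not differ past the threshold. The call in AGM was lost without the first AG library (log2 difference -0.58, limma FDR = 0.0550) and without the 2 AGM libraries that were rich in hepatocyte RNA (-0.55, limma FDR = 0.0642), with differences about as large as with all libraries. It was also lost with a pseudocount of 0.1 (limma FDR = 0.106) and with limma-voom (FDR = 0.200).

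The insulin receptor gene Insr moved the same way. AG were at 2.19, 1.98 and 1.90 FPKM and AGM at 1.15, 1.59, 1.34, 1.23 and 0.898 FPKM. TI ranged from 0.711 to 1.94 FPKM with a median of 1.13, and TIM from 0.376 to 1.26 FPKM with a median of 0.873. A single TI library reached into the AG range, at 1.94 FPKM, while AGM and TIM lay wholly below AG. Relative to AG, Insr had a log2 difference of -0.50 in TI (SE 0.14, limma FDR = 0.00542), -0.73 in TIM (SE 0.14, limma FDR = 0.000171) and -0.44 in AGM (SE 0.15, limma FDR = 0.0351). TIM was below AGM by a log2 difference of -0.29 (limma FDR = 0.0389), a call that was lost without any 1 of AGM replicates 1 to 4 (limma FDR from 0.0517 to 0.114) or of TIM replicates 2, 5 and 8 (0.0540 to 0.0754). Among tumors, TIM differed from TI by -0.23 on the log2 scale (SE 0.10, limma FDR = 0.112). The AGM vs AG call of Insr was lost without any 1 AG library (limma FDR from 0.0704 to 0.127) and without AGM replicates 1, 4 or 5 (0.0547 to 0.0876), while its log2 difference stayed between -0.38 and -0.47 in these fits. A pseudocount of 0.1 ended this call too (limma FDR = 0.0752), as did limma-voom (FDR = 0.0874) and leaving out both hepatocyte-rich AGM libraries (-0.36, limma FDR = 0.160).

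Igf2r, the clearance receptor for IGF2, was not called in any of the 6 contrasts on the deposited scale. AG were at 2.26, 2.21 and 2.03 FPKM and AGM at 1.77, 2.05, 2.17, 2.17 and 1.67 FPKM. TI ranged from 1.27 to 3.90 FPKM with a median of 2.38, and TIM from 0.493 to 3.21 FPKM with a median of 1.88. The tumor groups spread on both sides of the glands. Its log2 difference from AG was 0.09 in TI (SE 0.22, limma FDR = 0.794) and -0.20 in TIM (SE 0.22, limma FDR = 0.462), and that of TIM from TI was -0.29 (SE 0.16, limma FDR = 0.199). With FPKM recomputed outside the 126 extreme genes, TI lay above AGM by 0.65 (limma FDR = 0.0413). As a description, the ratio of Igf2r to Igf1r in FPKM spanned 1.13 to 1.23 for AG, 1.83 to 2.89 for AGM, 1.90 to 7.30 for TI (median 4.81) and 1.48 to 12.1 for TIM (median 3.57). The ratio of Igf1r to Insr was 0.904 to 0.941 in AG and 0.643 to 0.774 in AGM, and it spread from 0.345 to 1.49 in TI and from 0.109 to 1.03 in TIM.

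**Figure D2:**
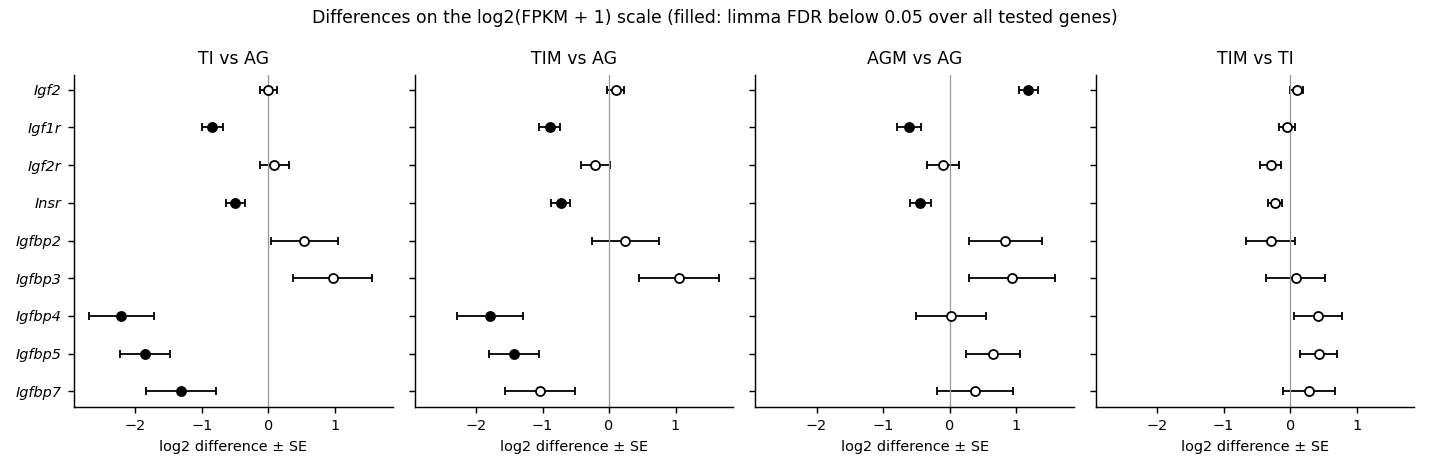
Log2 differences (points) with their standard errors (bars) of the 9 tested genes on the log2(FPKM + 1) scale in 4 contrasts; filled points passed an FDR of 0.05. Igf1r, Insr, Igfbp4 and Igfbp5 were lower in both tumor groups than in AG, by -0.50 to -2.21, and no gene passed in TIM vs TI.

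Igfbp4, a secreted protein that mostly holds IGFs away from their receptor, had the largest log2 difference between tumors and AG among the 9 genes tested by limma. AG were at 11.96, 11.2 and 15.0 FPKM and AGM at 9.61, 10.3, 6.79, 18.2 and 27.0 FPKM. TI ranged from 0.916 to 3.33 FPKM with a median of 1.91. TIM ranged from 1.10 to 16.2 FPKM with a median of 1.78, and 6 of its 8 libraries were at or below 2.53 FPKM. The TI group did not overlap with either gland group, while 2 TIM libraries, at 8.88 and 16.2 FPKM, reached gland levels. It differed from AG by -2.21 on the log2 scale in TI (SE 0.49, limma FDR = 0.000634) and -1.79 in TIM (SE 0.49, limma FDR = 0.00417), and TIM did not differ from TI past the threshold (0.42, SE 0.36, limma FDR = 0.425). Those 2 TIM libraries also had the highest summed FPKM among tumors of 6 Schwann markers, 16.9 and 25.1 against at most 4.15 in the other tumors, and of 6 adipocyte markers, 15.8 and 52.2 against at most 6.98. Within TIM, these 2 libraries also had the highest sums of 7 fibroblast and capsule markers, 37.0 and 33.5 FPKM. Their sums of 8 adrenal cortex markers, 3.59 and 11.3 FPKM, were the highest of TIM too. TI libraries reached 78.0 and 13.5 FPKM in these sums. The part of these cells in the Igfbp4 level was not tested.

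Igfbp5, a binding protein that attaches to extracellular matrix, fell as well. AG were at 8.27, 6.25 and 6.77 FPKM and AGM at 11.8, 13.7, 11.2, 11.2 and 10.4 FPKM. TI ranged from 0.494 to 3.01 FPKM with a median of 1.13, and TIM from 0.280 to 5.66 FPKM with a median of 2.41. All 16 tumors lay below all 8 glands, and all AGM libraries lay above all AG libraries. The log2 difference was -1.86 for TI vs AG (SE 0.38, limma FDR = 0.000262), -1.43 for TIM vs AG (SE 0.38, limma FDR = 0.00311) and -2.51 for TI vs AGM (SE 0.32, limma FDR = 3.74e-07). The rise from AG to AGM, 0.65 on that scale, had a limma FDR of 0.247 with all groups in the fit and 0.00155 in a fit of those 2 groups alone, and it was 0.24 with FPKM recomputed.

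Igfbp7, which binds IGFs weakly and is a known product of vessel walls, had the highest mean FPKM of the 5 binding protein genes in each group. AG were at 74.3, 68.3 and 79.1 FPKM and AGM at 96.1, 85.9, 109, 87.8 and 105 FPKM. TI ranged from 12.3 to 141 FPKM with a median of 26.7, and TIM from 14.8 to 116 FPKM with a median of 30.3. In each tumor group 1 library lay above all AG libraries and the other 7 lay below them. The log2 difference from AG was -1.32 in TI (SE 0.53, limma FDR = 0.0392) and -1.04 in TIM (SE 0.53, limma FDR = 0.104). The TI call was lost without any 1 AG library (limma FDR from 0.0820 to 0.108), without TI replicates 1, 3, 5 or 6 (0.0535 to 0.0676) and in a fit of TI and AG alone (0.0730). Without the high TIM library, the TIM difference from AG was -1.28 (limma FDR = 0.0285). The TI library at 141 FPKM was the highest of all tumors in the summed level of 8 endothelial markers (33.8 FPKM, against 3.71 to 10.6 in the other TI libraries) and the TIM library at 116 FPKM was the highest of its group (15.7 FPKM). Of the 8 endothelial markers, 5 were lower in TI and 7 lower in TIM than in AG, and their summed level was 26.7 to 28.9 FPKM in AG. The part of vessel content in Igfbp7 was not tested.

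Igfbp3, the main carrier of circulating IGF, was called in no contrast, with higher means but a wide spread in tumors. AG were at 6.27, 4.95 and 4.48 FPKM and AGM at 10.8, 9.05, 12.8, 11.2 and 10.6 FPKM. TI ranged from 4.90 to 75.7 FPKM with a median of 7.78, and TIM from 3.88 to 38.5 FPKM with a median of 10.8. The AGM libraries all lay above AG, while both tumor groups overlapped with AG and reached far above it. For TI the log2 difference from AG was 0.96 (SE 0.60, limma FDR = 0.186), 1.05 in TIM (SE 0.60, limma FDR = 0.150) and 0.94 in AGM (SE 0.65, limma FDR = 0.294), the last at a limma FDR of 0.00049 in a fit of AGM and AG alone. The TI library at 75.7 FPKM was the one with the high Igfbp7 level, and it also had the highest summed FPKM of 7 fibroblast markers (78.0) and of 5 pericyte markers (77.0) of all libraries. The fibroblast sum came mainly from the collagen genes Col1a1, Col3a1 and Col1a2, at 39.1, 20.9 and 17.6 FPKM. Its other markers Dcn, Lum, Pdgfra and Tcf21 were at 0.310, 0.0300, 0.0128 and 0.0469 FPKM there, below every AG library.

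Igfbp2, a binding protein abundant in fetal tissue and liver, was low and uneven. AG were at 0.520, 0.417 and 0.490 FPKM and AGM at 0.461, 0.507, 0.317, 4.83 and 6.55 FPKM. TI ranged from 0.108 to 2.27 FPKM with a median of 1.25, and TIM from 0.0833 to 3.29 FPKM with a median of 0.338. Each of the 3 other groups had libraries on both sides of AG. Its difference from AG on the log2 scale was 0.54 in TI (SE 0.51, limma FDR = 0.398), 0.25 in TIM (SE 0.51, limma FDR = 0.715) and 0.84 in AGM (SE 0.55, limma FDR = 0.263).

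**Figure D3:**
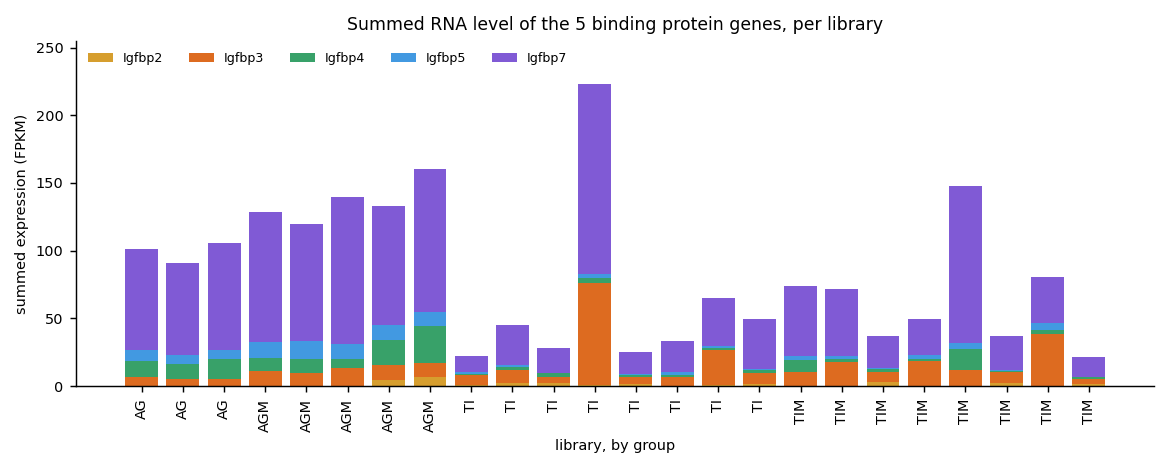
Summed FPKM (linear axis from 0) of the 5 binding protein genes in each of the 24 libraries, stacked by gene and ordered by group. The sum spanned 91.1 to 106 for AG, 120 to 160 for AGM, 22.4 to 223 for TI and 21.6 to 148 for TIM, with Igfbp7 as the largest part in most bars.

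Summed over the 5 genes, binding protein RNA had a median of 101 FPKM in AG, 133 in AGM, 39.6 in TI and 60.8 in TIM. Igfbp7 made up 73.3% to 75.0% of the sum in AG, 54.0% to 74.6% in TI and 41.6% to 78.5% in TIM.

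Counted over the set, 9 of the 10 genes passed the filter of 1 FPKM in 3 libraries, and all genes tested numbered 10171. In TI vs AG, 5 of the 9 were lower and 0 higher, where 27.7% of all tested genes were lower and 52.4% were called in either direction. In TIM vs AG, 4 were lower and 0 higher (28.5% of all tested genes lower, 51.0% called). In AGM vs AG, 1 was higher, Igf2, which had passed the filter through AGM, and 2 were lower (14.6% of all tested genes higher, 14.0% lower, 28.6% called). In TIM vs AGM, 5 were lower (33.4% of all tested genes), and in TI vs AGM, 4 were lower (36.2%). Both counts include Igf2, whose lower value in tumors than in AGM was fixed by the filter. The 5 of 9 called in TI vs AG and the 3 of 9 called in AGM vs AG are near these background shares, and in TIM vs AGM and TI vs AGM 65.3% and 72.4% of all tested genes were called in either direction. Library by library, 3 genes lay wholly below AG in TI (27.3% of all tested genes) and 3 in TIM (24.7%). In AGM, 4 genes lay wholly above AG (29.4%), namely Igf2, Igfbp3, Igfbp5 and Igfbp7, and Igf1r and Insr lay wholly below it (32.5%). The median log2 difference of the 9 genes was -0.50 in TI vs AG and -0.73 in TIM vs AG, beside -0.0021 and -0.0049 over all tested genes. In AGM vs AG 1488 of 2908 calls over all genes were higher as deposited and 1280 of 5863 with FPKM recomputed outside the 126 extreme genes, a scale on which the median of all genes tested was -0.34. Igf1r, Insr and Igf2 kept their calls and directions in AGM vs AG on that scale (-1.35, -1.06 and 2.67), while the uncalled differences of Igfbp4 and Igfbp7 turned to -0.45 and -0.09. TI vs AG and TIM vs AG share the AG libraries.

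TIM vs TI compares tumors of both transgenes with tumors of IGF2BP1 alone, and since 7 of 8 TI tumors were labelled IGF2BP1 +/+ and 6 of 8 came from run 1, which held no TIM sample, MYCN, the IGF2BP1 dose and the run cannot be told apart. Age and tumor site cannot be told apart from the group either. The study reports mostly abdominal tumors with IGF2BP1 alone. With both transgenes it reports earlier tumors, at the adrenal gland, in the abdomen and along the spine. In TIM vs TI, 0 of 9 genes passed an FDR of 0.05 in limma, where 22.9% of all tested genes did. At an unadjusted limma p below 0.05 there was 1 gene, Insr, and limma-voom on recovered reads also called 0 at an FDR of 0.05. The largest differences were those of Igfbp5 (0.43, SE 0.28, limma FDR = 0.278) and Igfbp4 (0.42, SE 0.36). The groups overlapped for all 9 genes (1.55% of all tested genes did not overlap).

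Within the tumors, 3 pairs of binding protein genes rose together and 1 pair ran in opposite directions by Pearson's r. Over 8 TI and 8 TIM tumors, deviations of log2(FPKM + 1) from the group mean were correlated for all 36 pairs of the 9 genes, with permutation within groups and Benjamini-Hochberg adjustment over the pairs. Pearson's r passed an adjusted p of 0.05 for 4 pairs. Igfbp4 and Igfbp7 had r = 0.72 (permutation p = 9.0e-05, adjusted 0.00288) and rho = 0.72 (permutation p = 0.00121, adjusted 0.0109). Igfbp3 and Igfbp5 had r = 0.75 (permutation p = 0.00016, adjusted 0.00288) and rho = 0.77 (permutation p = 0.00066, adjusted 0.0109). Igfbp5 and Igfbp7 had r = 0.71 (permutation p = 0.0012, adjusted 0.0144) and rho = 0.78 (permutation p = 0.00103, adjusted 0.0109). These 3 pairs rose together, and the fourth ran the other way. Igfbp2 and Igfbp5, the neighbours on chromosome 1, had r = -0.78 (permutation p = 0.00181, adjusted 0.0163) and rho = -0.79 (permutation p = 0.00111, adjusted 0.0109). Without the 2 tumors farthest from the median of the first gene, r was 0.68, 0.63, 0.79 and -0.72 in the order given, and r kept its sign within TI (0.80, 0.78, 0.79 and -0.65) and within TIM (0.87, 0.84, 0.72 and -0.84). Igfbp3 and Igfbp7 passed by rank alone (rho = 0.73, adjusted permutation p = 0.0180, with r = 0.68, adjusted permutation p = 0.0750). The receptors Igf1r and Insr had r = 0.47 (adjusted permutation p = 0.210), which fell to 0.05 without the 2 farthest tumors. Their r was -0.0024 within TI and 0.88 within TIM. The tumors with high Igfbp7 were also those with high endothelial marker RNA, as given above, and the part of tissue makeup in these correlations was not tested.

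**Figure D4:**
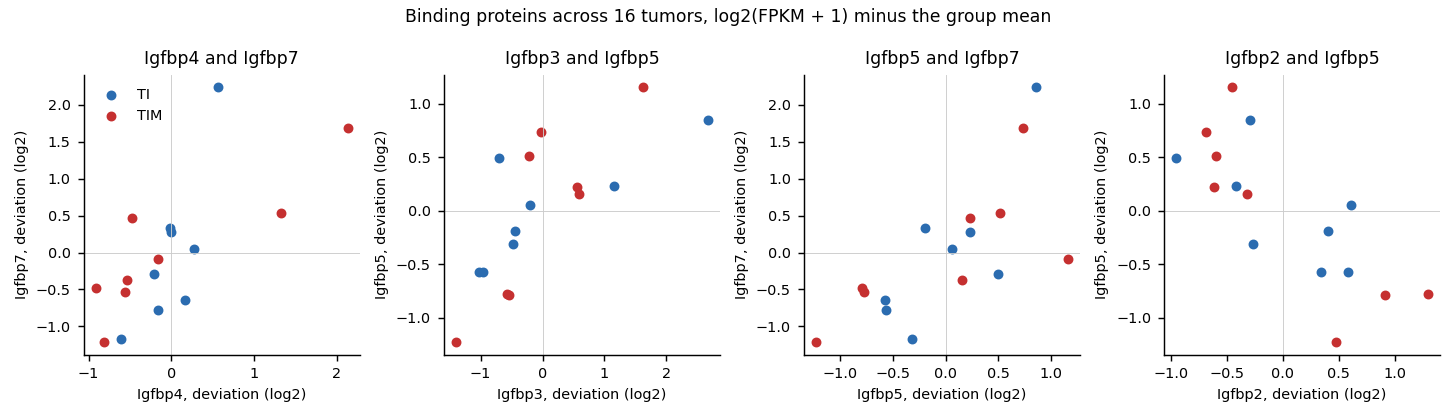
Deviation from the group mean of log2(FPKM + 1) of the 4 correlated pairs of binding protein genes in 8 TI and 8 TIM tumors (points). Igfbp4 and Igfbp7, Igfbp3 and Igfbp5, and Igfbp5 and Igfbp7 rose together (r = 0.72, 0.75 and 0.71), and Igfbp2 fell where Igfbp5 rose (r = -0.78).

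As a description, the genes of the whole table that deviated most like each member over the 24 libraries were sought. For Igfbp7 they were Grap, Rasip1 and Tie1 (r = 0.94, 0.94 and 0.93), of which Rasip1 and Tie1 are endothelial genes. For Igfbp3 they were Sema3f, Inhbb and Dll4 (r = 0.95, 0.94 and 0.91), and for Igfbp5 Epas1, Rims3 and Nr2f2 (r = 0.91, 0.88 and 0.87). For Igfbp4 they were Rarres2, Fxyd1 and Lbp (r = 0.97, 0.96 and 0.93). For Igfbp2 they were Arg1, Nipsnap1 and Elovl2 (r = 0.92, 0.89 and 0.87), with Arg1 a urea cycle enzyme of the liver. Igf1r was most like Zbtb39, Patl1 and Fam120a (r = 0.88, 0.85 and 0.84), Insr like N4bp1, Luzp1 and Jak1 (r = 0.89, 0.87 and 0.86), and Igf2r like Aak1 and Nfasc (r = 0.87 and 0.85). Igf2 was most like Elfn1, Ocln and A2m (r = 0.82, 0.76 and 0.76). The points share libraries and their scaling.

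The AGM glands differed among themselves in a set of liver-made IGF genes. The summed FPKM of 4 hepatocyte markers was 126, 23.5, 2.63, 3182 and 4312 in AGM and 1.66 to 3.90 in AG. The last 2 AGM libraries were those at 1.35 and 1.38 FPKM of Igf1, 4.83 and 6.55 FPKM of Igfbp2 and 18.2 and 27.0 FPKM of Igfbp4. Igfals, whose product holds IGF1 and IGFBP3 in a serum complex, was at 351 and 495 FPKM there and at 1 read per library in AG. In the other 3 AGM libraries, in the order given, it was at 45.4, 69.3 and 20.2 FPKM. It thus did not follow the hepatocyte sum among these, and the library at 20.2 FPKM had a hepatocyte sum of 2.63, within the AG range. Igfbp1, a liver binding protein, was at 304 and 194 FPKM there, at most at 5.15 FPKM in the other 3 and at most at 0.00618 FPKM in AG. Alb was at 610 and 677 FPKM in the same 2 libraries. With those 2 libraries left out, the log2 difference of AGM from AG turned from 0.84 to -0.05 for Igfbp2 and from 0.02 to -0.48 for Igfbp4, and 1 member remained called, Igf2. The pancreas acinus marker sum was 36402 and 28352 FPKM in these 2 libraries and 33430 to 428309 in the other 3. The part of liver RNA in these levels was not tested further.

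**Figure D5:**
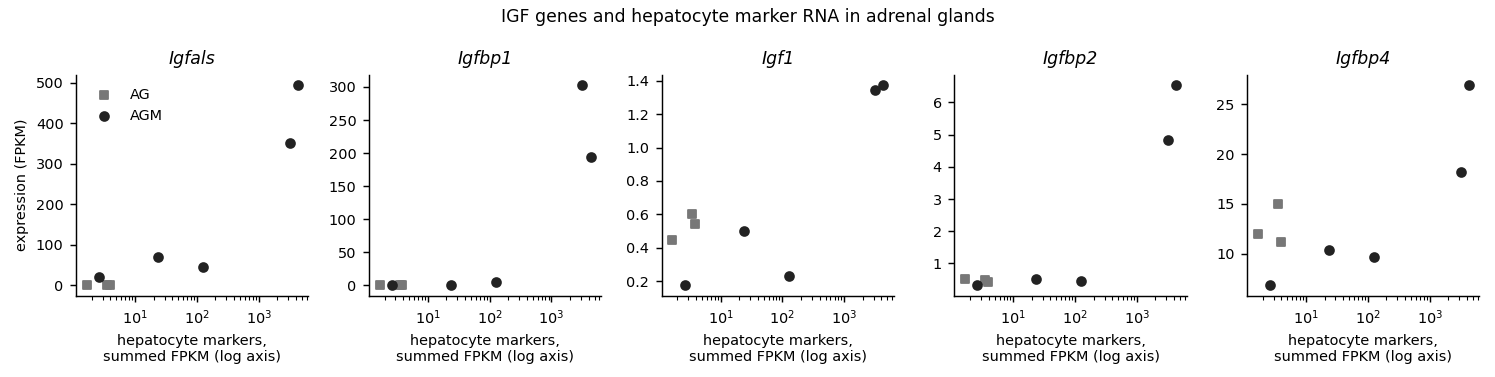
FPKM (linear axes) of Igfals, Igfbp1, Igf1, Igfbp2 and Igfbp4 against the summed FPKM of 4 hepatocyte markers (log axis) in 3 AG and 5 AGM glands, each point a library. The 2 AGM libraries at 3182 and 4312 on the horizontal axis had the highest level of each of the 5 genes.

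Among the other genes of the axis, 7 further ligand and binding genes were in the table and 4 were tested. Igfbp6, an IGF2-preferring binding protein, was lower in TI (log2 difference -2.82, SE 0.59, limma FDR = 0.000333), at 0.475 ± 0.365 FPKM (SD, n = 8) against 9.20 ± 1.14 FPKM in AG (SD, n = 3). It was also lower in TIM (-2.07, limma FDR = 0.00533), with 2 libraries at 10.9 and 12.7 FPKM that were the same as those high in Igfbp4. Igfbpl1, an IGFBP-like secreted protein, was 0 in AG and 0.0963 to 40.4 FPKM in TI (3.05, SE 0.77, limma FDR = 0.00202), and 0.148 to 4.62 FPKM in TIM (1.60, limma FDR = 0.0873), having passed the filter through the tumors alone. In AGM, 2 of the 4 were higher, Igfals (6.69, limma FDR = 2.80e-07) and Igfbp1 (3.93, limma FDR = 0.0204), where 14.6% of all tested genes were higher. Their values by library are given with the hepatocyte markers above.

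Of 8 binding protein proteases and regulators, 5 were tested, with 3 lower in TI than in AG (27.7% of all tested genes were lower) and 0 higher. Lrp1, an endocytic receptor, had a log2 difference of -1.09 (SE 0.28, limma FDR = 0.00243) and Htra1, a secreted serine protease, of -1.32 (SE 0.41, limma FDR = 0.00896). In TIM, 1 was lower, Lrp1 (-1.17, limma FDR = 0.00142), where 28.5% of all tested genes were lower. The 3 IGF2 mRNA binding protein genes were below the filter. Igf2bp2 was at 0.121 to 0.133 FPKM in AG, 0.162 to 0.251 FPKM in AGM, 0.00444 to 0.0323 FPKM in TI and 0 to 0.0282 FPKM in TIM, which is lower in every tumor than in every gland.

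Downstream of the receptors, 8 of 10 substrates and adaptors were tested, with 2 called in TI vs AG and 2 in TIM vs AG, below the 52.4% and 51.0% of all tested genes. In TI vs AG, Grb10, an imprinted adaptor that restrains the receptors, was lower (-1.02, SE 0.25, limma FDR = 0.00163) and the phosphatase gene Ptpn1 was higher (0.44, SE 0.16, limma FDR = 0.0300). In TIM vs AG, 1 was higher, Irs2 (1.23, limma FDR = 0.0148), and 1 lower, Shc1 (-0.85, limma FDR = 0.00340). Between tumors, 1 was higher in TIM than in TI, Grb10 (0.68, SE 0.19, limma FDR = 0.0116), and 2 were lower, Grb2 (-0.50, limma FDR = 0.00236) and Shc1 (-0.49, limma FDR = 0.0396). Of all tested genes, 22.9% were called in that contrast.

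Of 20 genes of PI3K, AKT, FOXO and mTOR, 16 were tested, with 1 higher and 4 lower in TI than in AG and 3 higher and 5 lower in TIM than in AG, against 52.4% and 51.0% of all tested genes called in either direction. Akt2, the isoform linked with insulin action, was at 12.8 ± 1.34 FPKM in AG (SD, n = 3), 2.98 ± 0.343 in TI and 2.82 ± 0.621 in TIM (SD, n = 8 each), a log2 difference from AG of -1.79 (SE 0.13, limma FDR = 6.79e-11) and -1.86 (limma FDR = 3.43e-11). Foxo4, a transcription factor that AKT inhibits, was lower in TI (-0.94, SE 0.19, limma FDR = 0.000191) and in TIM (-1.22, limma FDR = 7.81e-06). In AGM vs AG, 0 were higher and 5 lower, among them Akt2 (-0.48, limma FDR = 0.0126) and Foxo4 (-0.75, limma FDR = 0.00749). Of all tested genes, 14.6% were higher and 14.0% lower in that contrast.

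The growth hormone axis, which drives Igf1 transcription in many tissues, was lower in TI and in TIM than in AG in all 4 tested genes of 6, where 27.7% and 28.5% of all tested genes were lower. Ghr reached 1 FPKM in glands alone, and Jak2 in AG and 1 TI library alone. The filter thus favoured a lower tumor value for Ghr and Jak2, and the count is given as a description. The 6 adipocyte markers were also all lower in both tumor groups, and their summed FPKM was 91.8, 542 and 749 in AG, at most 2.27 in TI and at most 52.2 in TIM. Ghr was at 0.725, 1.04 and 1.53 FPKM in the same AG libraries, and the part of fat tissue in these genes was not tested. The receptor gene Ghr was at 1.10 ± 0.404 FPKM in AG (SD, n = 3), 0.0657 ± 0.0739 in TI and 0.115 ± 0.123 in TIM (SD, n = 8 each), a log2 difference of -0.96 (SE 0.16, limma FDR = 2.77e-05) and -0.90 (limma FDR = 6.31e-05). Stat5a, a factor that relays the signal, had a difference of -0.63 in TI (SE 0.12, limma FDR = 0.000115) and -0.60 in TIM (limma FDR = 0.000229). Its relative Stat5b had a difference of -0.70 in TI (SE 0.27, limma FDR = 0.0336) and -1.02 in TIM (limma FDR = 0.00312). In AGM vs AG, 1 was higher, Stat5a, which reached 1 FPKM in the AGM libraries alone, so that the filter fixed its direction (0.65), and 1 lower, Jak2 (-0.63, limma FDR = 0.000131), which no AGM library held at 1 FPKM. Of all tested genes, 14.6% were higher and 14.0% lower in that contrast.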

How the data were processed

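Poly(A), strand-specific RNA-seq of 24 mouse samples was read from 1 deposited table. Per the submitters' processing notes and the study's methods, the authors trimmed reads with cutadapt 2.8, aligned them to mm39 with HISAT2 2.1.0 and SAMtools 1.10, counted with featureCounts 2.0.0, corrected the counts for a batch with ComBat-seq and scaled them by TMM in edgeR 3.40. The deposited values are FPKM, with gene length as another column. The table's own fold changes, p-values and FDR were not used. FPKM times length gave whole reads for 100.0% of entries (tolerance 0.01). These are reads after the correction, and the read intervals cover counting error only.

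Columns were assigned to groups by name and numbered in table order, since they could not be tied to single samples. No 2 columns were identical, and no values within runs could be had. limma 3.58.1 (R 4.3.3, trend) was fitted to log2(FPKM + 1) of the 10171 genes that reached 1 FPKM in 3 or more libraries, over all 24 libraries, with Benjamini-Hochberg adjustment over all tested genes and an FDR threshold of 0.05. A count test had been planned for the case of counts. Differences on that scale understate changes of low genes. Igf1 was below the filter and was tested by exact permutation of RPM. Pairs were tested with 100000 permutations (scipy 1.17.1). The code was tested on simulated data. Named genes were all 10 members, the 2 of each pathway list with the lowest FDR in TI vs AG in each direction, and the 3 most correlated genes per member; others named beside a count were chosen after their values were seen. Some genes that this rule names are not reported here. The members and lists were chosen with earlier results of these data known. The labels do not say whether samples of a group came from separate animals, so p-values measure the spread between these samples. Alternatives were another pseudocount, other filters, FPKM recomputed outside the 126 extreme genes, limma-voom, fits of 2 groups and leaving out libraries.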

Additional observations from a re-analysis of the deposited data

Results flagged for a closer look

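Among 30 groups of libraries tested for a sample far from the others, Igfbp7 in TI was the only one found, with a single tumor at 141 FPKM above the other 7 (12.3 to 36.9 FPKM). Chance alone gives such a gap in about 1 of 20 groups. The same tumor had the highest endothelial, fibroblast and pericyte marker sums of the TI group (33.8, 78.0 and 77.0 FPKM). Its fibroblast sum came mainly from collagen genes, while Dcn, Lum, Pdgfra and Tcf21 were below every AG library.

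For Igf2, the change from AGM to TIM minus the change from AG to TI was -1.08 on the log2(FPKM + 1) scale, and the test of this difference passed its threshold. Igf2 passed the filter through AGM alone and was at 0 or 1 read in AG and TI, so this value turns on the AGM level, which the filter fixed, and is given as a description. AGM libraries share no sequencing run with AG.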

How the results depend on the processing

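No paired analysis was possible because the columns carry no replicate numbers of the labels, so a replicate block could not be fitted. In TI vs AG and TIM vs AG the calls of Igf1r, Insr, Igfbp4 and Igfbp5 kept their direction and stayed past the threshold in all 16 alternatives that gave a value for each, and so did Igf2, whose difference the filter fixed, in all 14 of AGM vs AG. Of the values of single members under alternatives, 947 kept direction and side, 52 lost the threshold, 10 gained it and 32 turned. Of the counts of members or pairs, 108 stayed within 1.5 times and 31 did not.

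In AGM vs AG the count was 3, and 1 with a pseudocount of 0.1, with limma-voom or without the 2 hepatocyte-rich AGM libraries (chosen after the data were seen), and 6 in a fit of the 2 groups. In TIM vs TI recomputed FPKM gave 1 (Insr, limma FDR = 0.0498) against 0. The filter of 1 FPKM in every library kept only Igfbp3 and Igfbp7, with 1 call in TI vs AG, TIM vs AGM and TI vs AGM and 0 in TIM vs AG and AGM vs AG. Leaving out 1 library at a time gave 1 to 3 calls in AGM vs AG, 0 to 1 in TIM vs TI and 0 to 3 of 6 for Igf1, where fewer libraries raise the smallest exact p.

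The differences that changed sign passed the threshold neither as reported nor under the alternative. With a pseudocount of 0.1, Igfbp3 was at -0.0014 in TI vs AGM. With recomputed FPKM, Igfbp7 and Igfbp4 were at -0.0875 and -0.45 in AGM vs AG, Igfbp3 at -0.0287 in TIM vs TI, Igf2r at 0.0940 in TIM vs AGM, and Igfbp2 and Insr at 0.0783 and 0.28 in TI vs AGM. With limma-voom, Igfbp2 was at -0.0811 in TIM vs AG and Igfbp3 at -0.0046 in TI vs AGM. Without the hepatocyte-rich libraries, Igfbp2 and Igfbp4 were at -0.0486 and -0.48 in AGM vs AG, and Igfbp2 at 0.29 in TIM vs AGM and 0.59 in TI vs AGM. RPM by the authors' scaled library size gave 0.45 for Igf1 in AGM vs AG. Leave-one-out ranges that crossed 0 were -0.23 to 0.23 (Igfbp4) and -0.48 to 0.0916 (Igf1) in AGM vs AG, -0.12 to 0.31 (Igfbp3) and -0.20 to 0.0179 (Igf2r) in TIM vs AGM, -0.55 to 0.0792 (Igfbp2) and -0.35 to 0.18 (Igfbp3) in TI vs AGM, and -0.13 to 0.0291 (Igf1r) and -0.15 to 0.47 (Igfbp3) in TIM vs TI. The cause of these changes was not tested.

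Insr in TIM vs AGM was lost with recomputed FPKM (limma FDR = 0.360) and without any of AGM replicates 1 to 4 or TIM replicates 2, 5 or 8. Igf1r in TIM vs AGM passed without AGM replicate 5 (limma FDR = 0.0477) or TIM replicate 6 (0.0126). Igfbp7 in TI vs AG was also lost with no filter (limma FDR = 0.0568), beside the losses given with its values. With recomputed FPKM, the median over all 14422 genes tested was -0.34 in AGM vs AG, -0.14 in TIM vs AG, -0.12 in TIM vs TI, 0.24 in TIM vs AGM and 0.33 in TI vs AGM. This scale gave 3595 calls with 1074 higher in TIM vs TI (2332 and 1017 as deposited), 5470 of 9129 higher in TIM vs AGM (3241 of 6639) and 6469 of 10253 in TI vs AGM (3683 of 7361). Calls over all genes in AGM vs AG were 2908, and 6312 in a fit of the 2 groups, 1896 and 1935 without AG replicates 1 and 2, and 1755 without the hepatocyte-rich libraries. In TIM vs TI the fit of 2 groups gave 1309. With 1 FPKM in every library there were 3464 genes, with 1627 calls in TI vs AG, 1534 in TIM vs AG, 569 (205 higher) in AGM vs AG, 737 in TIM vs TI, 1944 in TIM vs AGM and 2318 in TI vs AGM.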
